A study of Rattus norvegicus with 9 samples.

Results

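The genes described here encode the mitochondrial carriers of the Slc25 family and the uncoupling proteins, which belong to the same family. They were chosen by name and by a minimum of reads: genes typed as mRNA whose symbol begins with Slc25a and a digit, or is Ucp1, Ucp2 or Ucp3, with at least 90 reads summed over all 9 rats. Of the 37209 genes in the table, 50 have such a symbol, and 44 of these reached the minimum. All 44 passed the filter on low counts and were among the 16837 genes tested. The 6 genes under the minimum were Slc25a21 with 18 reads, Slc25a47 with 12, Slc25a41 with 8, Slc25a54 with 5, and Ucp1 and Slc25a31 with 0. The members closest above it were Slc25a52 with 91 reads, Ucp3 with 106, Slc25a45 with 115 and Slc25a48 with 130. Ucp3 passed the minimum only through the MS rats described below, which held 88 of its 106 reads.

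Mitochondrial carriers sit in the inner mitochondrial membrane and exchange small molecules between the matrix and the cytosol, among them ADP and ATP, phosphate, carboxylates, amino acids and cofactors. In the brain they feed substrates to the matrix, hand reducing equivalents across the membrane and supply the glutamate and aspartate of neurons and astrocytes. The uncoupling proteins lower the proton gradient across the membrane. Ucp1 is the heat-producing protein of brown fat and Ucp3 is best known from skeletal muscle and brown fat, whereas Ucp2 is found in many tissues.

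RNA was sequenced from the frontal cortex of 9 male Wistar rats at an age of 14 weeks. The 3 Control rats had been left undisturbed with their mothers until weaning. The 3 MS (maternal separation) rats had spent 4 h of each day without their mothers between postnatal day (PND) 1 and PND 21. The 3 MS+EA rats had undergone the same separation and then received electroacupuncture (EA), a weak current through needles at the acupoints GV20 and GV29, every other day from PND 61 to PND 81 under anesthesia. In the study's methods the Control and MS rats were anesthetized without needles, whereas the wording of the labels leaves unclear whether they were needled too, which bears on both comparisons with MS+EA rats, and the sequenced groups include no sham EA group. The labels do not say which rats shared a litter or a cage, so the p values measure the spread between these rats. Rat names begin with A in the Control group (A1, A2, A6), with B in the MS group (B3, B4, B6) and with C in the MS+EA group (C3, C10, C16).

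Between 12479905 and 19007907 reads were counted per rat, and the highest MS+EA total, 14913736, was below the lowest of the other rats, 16106381. Neuron markers such as Snap25, Syt1 and Slc17a7 were abundant in every rat, at a summed level of 4800 to 6250 CPM, the unit of edgeR for counts scaled to a common normalized library size. Markers of blood and of the coverings of the brain were higher in MS than in Control rats. The summed level of 5 red blood cell markers was 94.5 to 199 CPM in Control rats, 223 to 305 CPM in MS rats and 211 to 304 CPM in MS+EA rats. The summed level of 4 meninges markers was 31.1 to 39.7 CPM in Control rats, 43.2 to 331 CPM in MS rats with B4 highest, and 42 to 166 CPM in MS+EA rats. Choroid plexus markers summed to 2.17 to 2.86 CPM in Control rats, 2.33 to 20.1 CPM in MS rats and 1.47 to 6.58 CPM in MS+EA rats. In MS rats against Control rats, 4 of 5 red blood cell, 3 of 4 meninges, 3 of 4 choroid plexus and 2 of 4 endothelial markers were higher at an unadjusted p under 0.05, as was 1 of 5 neuron markers, Snap25, and 0 of 5 each for astrocytes, oligodendrocytes and microglia, beside 7.06% of all genes. In bulk tissue, fewer cells of a type and less RNA per cell cannot be told apart.

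The summed level of the carriers was 2030 to 2100 CPM in Control rats, 2000 to 2040 CPM in MS rats and 1960 to 2020 CPM in MS+EA rats. The Control and MS rats overlapped, and each MS+EA rat was below each Control rat, with C3 at 2020 CPM close to A2 at 2028 CPM. The carriers held between 0.197% and 0.21% of the counts of a rat. The highest share was that of C3, above the 0.205% to 0.207% of the Control rats. The place of C3 below the Control rats in CPM thus rested on the TMM factors, which was 1.039 for C3. The mean level of a single gene in Control rats ranged from 0.117 to 321 CPM, with 4 genes under 1 CPM and 6 over 100 CPM. CPM is not divided by transcript length, so it gives the share of reads of a gene and not an order of expression between genes. Of the 290139 reads counted on the family, 15.4% fell on Slc25a23, 15.3% on Slc25a4, 11.7% on Slc25a3, 6.83% on Slc25a36, 6.8% on Slc25a12 and 6.57% on Slc25a5, which makes 62.6% in all. Slc25a44 and Slc25a46 followed with 3.72% and 3.31%. The median coefficient of variation between rats of a group was 7.35% for the carriers and 10.2% for all genes tested in Control rats, 10.3% and 10.1% in MS rats, and 12.2% and 12.3% in MS+EA rats.

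**Figure D1:**
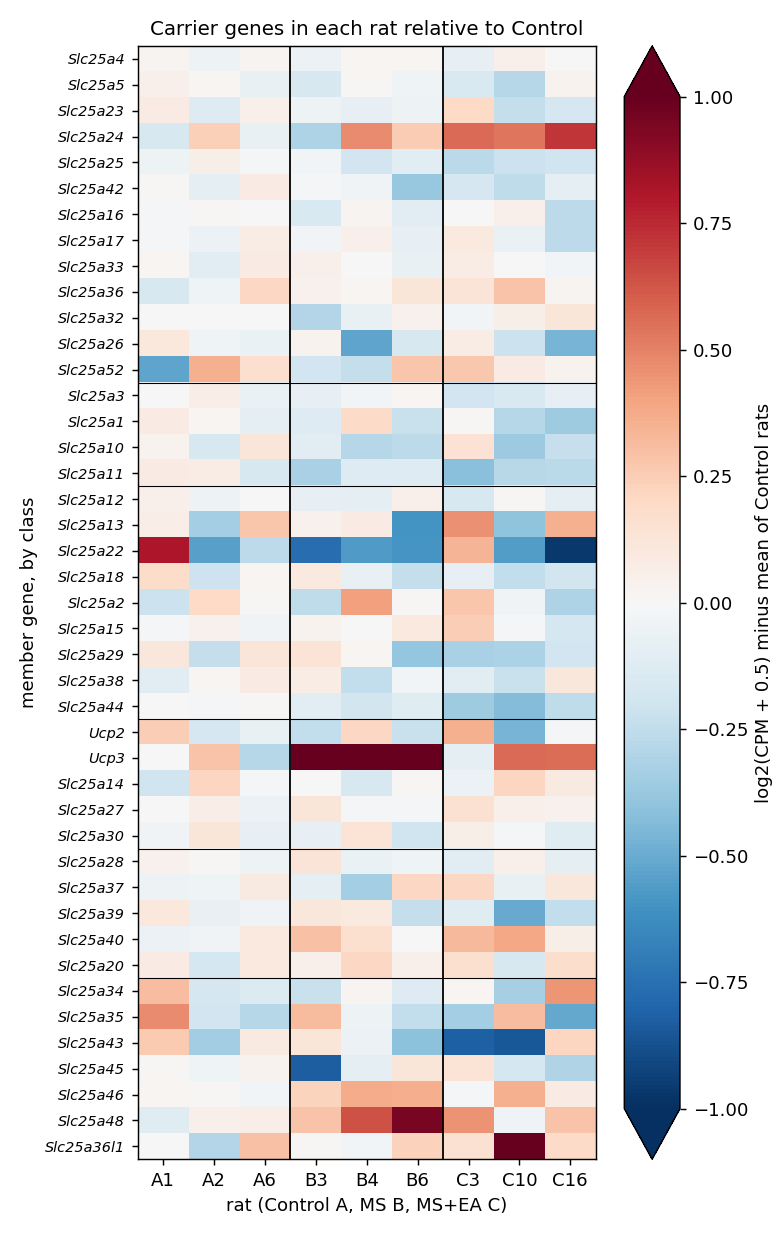
Level of 43 of the 44 carrier genes (rows, by class) in each rat (columns), as log2(CPM + 0.5) minus the mean of the Control rats. Most rows stay pale in all 9 rats. The scale ends at 1 in either direction, and the genes that pass it in some rat are Ucp3 and Slc25a36l1.

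Expression was compared with edgeR's quasi-likelihood test over all genes, and a gene was called when its adjusted p was under 0.05 and its fold change over 1.5 in either direction. No carrier passed both thresholds in MS rats against Control rats, where 0.0238% of all genes did. None passed in MS+EA rats against MS rats, with 0.0178% of all genes, and none in MS+EA rats against Control rats, with 1.37% of all genes. At an unadjusted p under 0.05 by edgeR there were 3, 3 and 7 carriers in these comparisons. These are 6.82%, 6.82% and 15.9% of the 44 carriers, beside 10.6%, 12.4% and 22.5% of all genes. By DESeq2 there were 3, 4 and 7 carriers at this p. DESeq2 called none, but it gave Ucp3 no adjusted p and so could not call it. The likelihood ratio test of edgeR called 1, 1 and 0. Slc25a44 alone reached an adjusted p under 0.05, in MS+EA rats against Control rats, with a fold change below the threshold. In that comparison 5.40% of all genes had an adjusted p under 0.05.

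The uncoupling proteins and their relatives form a class of 5 genes. Ucp3 stood out by the size of its difference, and the other 4 had overlapping groups in every comparison. Ucp3 had 2, 4 and 0 reads in Control rats, 43, 22 and 23 reads in MS rats, and 1, 6 and 5 reads in MS+EA rats. Each MS rat was above each rat of the other groups, and the Control and MS+EA rats overlapped. With depth taken into account, the reads of the MS rats together were 15.1 times those of the Control rats (95% exact interval 6.66 to 42.2). They were 6.18 times those of the MS+EA rats (3.36 to 12.4). These intervals hold counting error only and leave out the spread between rats. Ucp3 reached the minimum of reads only through its 88 reads in MS rats, beside 6 in Control and 12 in MS+EA rats. Its ratios, and the counts of carriers that include it, are therefore not independent of the rule that chose it. For MS+EA rats against Control rats the ratio was 2.44, with an interval of 0.848 to 7.93 that includes no difference.

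These ratios rest on few reads, and the test across all genes did not call them. Ucp3 had a log2 fold change of 3.82 ± 0.691 (SE) in MS rats against Control rats, with an edgeR adjusted p of 0.0766, and between 3.3 and 4.76 under 16 alternative settings. It was -2.58 ± 0.623 (SE) in MS+EA rats against MS rats, with an edgeR adjusted p of 0.205. The call depended on the method: the adjusted p became 0.000485 and 0.0269 when all genes with at least 1 count were tested, and the likelihood ratio test called both. DESeq2 gave Ucp3 no adjusted p. Without B4, the MS rat with the most meninges markers, the log2 fold change in MS rats against Control rats was 3.97. Of the skeletal muscle markers, Ckm had 0 reads in 7 rats and 2 reads each in B3 and B4, and Mb had 1 read in A6 and 0 in the other rats. The summed level of 8 muscle markers was 5.94 to 9.06 CPM in MS rats and 8.35 to 9.32 CPM in Control rats, and that of 4 fat markers was 0.291 to 1.12 CPM and 0.374 to 0.487 CPM. Red blood cell and meninges markers were higher in the MS rats than in the Control rats, with summed levels in the MS+EA rats that overlapped those of the MS rats. The 4 choroid plexus markers tested had a median log2 fold change of 2.28 in MS rats against Control rats, with all 4 above 0. In MS+EA rats against MS rats their median was -0.764, with 3 below 0 and 1 above. Their summed level in MS rats, 2.33 to 20.1 CPM, overlapped both other groups. The endothelial marker Cldn5 had 49.7, 44.8 and 47.9 CPM in Control rats, 58.8, 60.9 and 55.3 CPM in MS rats, and 50.6, 46.9 and 49.2 CPM in MS+EA rats, so its MS rats, like those of Ucp3, lay above all other rats. Its log2 fold changes were 0.30 in MS rats against Control rats and -0.25 in MS+EA rats against MS rats, with edgeR adjusted p values of 0.171 and 0.245. The summed level of 4 endothelial markers was 138 to 169 CPM in Control rats, 171 to 240 CPM in MS rats and 155 to 198 CPM in MS+EA rats. The part of these markers in the level of Ucp3 was not tested. In the order of genes along the chromosome Ucp3 lies next to Ucp2 and C2cd3, whose log2 fold changes in MS rats against Control rats were -0.09 and -0.06.

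The promoter of Ucp3 is shown because this gene had the largest fold change of the family. RefSeq gives 300 bases, from 250 before to 50 after the start of the gene, on the plus strand of GRCr8 at chr1:164227660-164227959, a newer build than the Rnor_6.0 used for the reads. No capitals appear because it held none of the 8 motifs searched.
Ucp3: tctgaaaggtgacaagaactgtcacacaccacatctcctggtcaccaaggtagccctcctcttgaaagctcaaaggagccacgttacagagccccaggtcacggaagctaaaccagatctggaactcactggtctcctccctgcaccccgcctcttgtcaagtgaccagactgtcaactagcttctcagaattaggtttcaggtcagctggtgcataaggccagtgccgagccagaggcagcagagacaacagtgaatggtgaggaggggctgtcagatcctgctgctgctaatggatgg

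The groups of the other 4 genes overlapped in each comparison, and none had an unadjusted p under 0.05. Ucp2, which is found in many tissues, had 19.2 ± 3.05 CPM in Control rats (SD, n = 3), 18.1 ± 3.41 CPM in MS rats and 19 ± 5.44 CPM in MS+EA rats. Slc25a14 and Slc25a27, also called Ucp5 and Ucp4 and found mainly in the brain, had 47.8 ± 6.98 and 37.4 ± 1.64 CPM in Control rats. In MS rats they had 45.8 ± 3.04 and 38.3 ± 2.12 CPM, and in MS+EA rats 50.4 ± 4.85 and 39.7 ± 1.72 CPM. Slc25a30, a close relative of Slc25a14, had 18.4 ± 1.44, 17.8 ± 2.17 and 18 ± 1.19 CPM in Control, MS and MS+EA rats. The 95% interval of the log2 fold change in MS rats against Control rats ran from -0.14 to 0.21 for Slc25a27, from -0.30 to 0.18 for Slc25a14, from -0.31 to 0.21 for Slc25a30 and from -0.52 to 0.34 for Ucp2, which was thus measured with the least precision of the 4. The summed level of the class was 118 to 131 CPM in Control rats, 119 to 124 CPM in MS rats and 125 to 131 CPM in MS+EA rats.

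**Figure D2:**
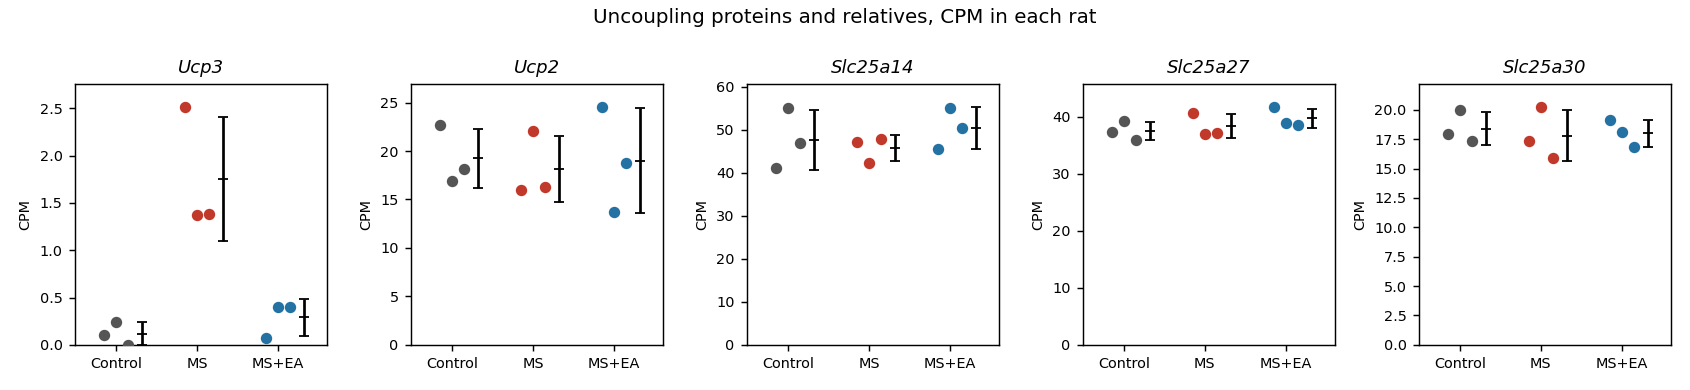
CPM (vertical axis, from 0) of Ucp3, Ucp2, Slc25a14, Slc25a27 and Slc25a30 in each rat, with points for rats and bars for the mean and SD of 3 rats. The 3 MS rats lie above the other 6 for Ucp3, at 1.37 to 2.51 CPM, and the groups overlap for the other genes.

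Among the 9 amino acid carriers, Slc25a44 was the one whose groups were fully apart in all 3 comparisons. It was the only carrier of the 44 with this pattern, which 2.22% of all genes showed. Slc25a44 carries branched-chain amino acids into mitochondria. It had 83.4, 83.0 and 84.0 CPM in Control rats, 77.1, 73.3 and 76.6 CPM in MS rats, and 65.1, 61.7 and 69.9 CPM in MS+EA rats. The order was Control above MS above MS+EA with no overlap between any of the groups. In MS+EA rats against Control rats its log2 fold change was -0.35 ± 0.07 (SE), a fold of 0.785, with an edgeR adjusted p of 0.0165. This adjusted p was 0.0724 without A1, 0.0599 without A6 and 0.0524 without C10, and lay between 0.000457 and 0.0724 over 17 alternative settings. Slc25a44 had a log2 fold change of -0.21 ± 0.07 (SE) in MS+EA rats against MS rats (edgeR adjusted p = 0.275) and -0.14 ± 0.07 in MS rats against Control rats (edgeR adjusted p = 0.484). The genes next to it, Pmf1 and Sema4a, had log2 fold changes of -0.16 and -0.10 in MS+EA rats against Control rats, with edgeR adjusted p values of 0.857 and 0.599. Slc17a7, a marker of glutamatergic neurons, was lower in the same comparison, with a log2 fold change of -0.30 and an edgeR adjusted p of 0.0207. Like Slc25a44, it stepped down without overlap, from 1530 to 1630 CPM in Control rats to 1440 to 1500 CPM in MS rats and 1220 to 1340 CPM in MS+EA rats. The other 4 neuron markers had an unadjusted p over 0.05 in MS+EA rats against Control rats. Of these, Rbfox3 and Syt1 had log2 fold changes of -0.20 and -0.05, and Snap25 and Gad1 had 0.18 and 0.12. The part of neuron content in the level of Slc25a44 was not tested.

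The promoter of Slc25a44 is shown because it is the carrier with the lowest adjusted p and the only one of the 35 carriers with a promoter in RefSeq that holds the motifs of NRF1 and YY1, factors known from nuclear genes of mitochondrial proteins. It lies on the minus strand of GRCr8 at chr2:176180789-176181088. Capitals mark, in order, CCAAT, the NRF1 core CGCATGCG, the YY1 element AAGATGGC and CCAAT on the other strand.
Slc25a44: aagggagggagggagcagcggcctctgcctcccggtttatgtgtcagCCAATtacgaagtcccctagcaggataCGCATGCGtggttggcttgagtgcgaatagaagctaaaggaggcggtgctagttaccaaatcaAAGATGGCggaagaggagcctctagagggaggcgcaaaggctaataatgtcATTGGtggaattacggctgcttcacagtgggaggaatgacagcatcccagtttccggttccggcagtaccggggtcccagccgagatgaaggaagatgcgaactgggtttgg

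The remaining amino acid carriers did not separate by the test. Slc25a22, a glutamate carrier, had 8.23, 2.92 and 3.66 CPM in Control rats, 2.45, 2.87 and 2.82 CPM in MS rats, and 5.82, 2.88 and 2.06 CPM in MS+EA rats. The MS rats lay below the Control rats without overlap, but A1 was far above the other Control rats, and the edgeR unadjusted p was 0.0545. Slc25a12, the aspartate and glutamate carrier of the malate-aspartate shuttle in neurons, had 141 ± 4.95, 138 ± 7.86 and 134 ± 8.37 CPM in Control, MS and MS+EA rats. Its close relative Slc25a13 had 3.05 ± 0.74, 2.69 ± 0.77 and 3.47 ± 1.16 CPM. Slc25a18, a glutamate carrier found in astrocytes, had 45.4 ± 6.17, 43.1 ± 5.17 and 40.1 ± 2.30 CPM. Slc25a15 and Slc25a2, carriers of ornithine, had 17.0 and 3.89 CPM in Control rats, Slc25a38, a glycine carrier needed for heme synthesis, had 20.6 CPM, and Slc25a29, which carries basic amino acids, had 8.86 CPM. None of these 4 had an unadjusted p under 0.05 in any comparison. The 9 genes summed to 314 to 342 CPM in Control rats, 303 to 317 CPM in MS rats and 293 to 296 CPM in MS+EA rats.

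The 4 phosphate and carboxylate carriers were Slc25a3, Slc25a1, Slc25a10 and Slc25a11. All 4 had a log2 fold change below 0 in MS rats and in MS+EA rats against Control rats, beside 50.3% and 49.1% of all genes. Slc25a11 and Slc25a3 were lower at an unadjusted p under 0.05 in MS+EA rats against Control rats, beside 10.6% of all genes. Slc25a11, the 2-oxoglutarate carrier that works beside Slc25a12 in the malate-aspartate shuttle, had 62.8, 62.4 and 52.9 CPM in Control rats, 47.2, 54.1 and 54.1 CPM in MS rats, and 44.1, 48.7 and 48.9 CPM in MS+EA rats. The MS+EA rats were all below the Control rats, and the MS rats overlapped with both. For Slc25a11 the log2 fold change in MS+EA rats against Control rats was -0.33 ± 0.09 (SE), with an edgeR adjusted p of 0.0566. Slc25a3, the phosphate carrier, which brings in the phosphate for ATP synthesis, had 246, 258 and 235 CPM in Control rats, 233, 241 and 250 CPM in MS rats, and 215, 221 and 232 CPM in MS+EA rats. Its MS+EA rats were below the others without overlap. Against Control rats, the log2 fold change of Slc25a3 in MS+EA rats was -0.15 ± 0.06 (SE), with an edgeR adjusted p of 0.187, and the unadjusted p passed 0.05 under 9 of 17 alternative settings. Slc25a1, the citrate carrier, had 13.4 ± 0.88, 13.0 ± 2.16 and 11.6 ± 1.67 CPM and Slc25a10, the dicarboxylate carrier, 18.3 ± 1.83, 15.6 ± 1.03 and 16.6 ± 3.20 CPM in Control, MS and MS+EA rats, with overlap in each pair of groups. Together the 4 genes had 321 to 350 CPM in Control rats, 309 to 331 CPM in MS rats and 293 to 307 CPM in MS+EA rats, so the MS+EA rats were below all other rats.

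The promoter of Slc25a11 is shown as that of the carrier with the next lowest adjusted p in that comparison. It lies on the minus strand of GRCr8 at chr10:55859011-55859310. Capitals mark CCAAT, then the GC box GGGCGG and, near the end, the same box on the other strand.
Slc25a11: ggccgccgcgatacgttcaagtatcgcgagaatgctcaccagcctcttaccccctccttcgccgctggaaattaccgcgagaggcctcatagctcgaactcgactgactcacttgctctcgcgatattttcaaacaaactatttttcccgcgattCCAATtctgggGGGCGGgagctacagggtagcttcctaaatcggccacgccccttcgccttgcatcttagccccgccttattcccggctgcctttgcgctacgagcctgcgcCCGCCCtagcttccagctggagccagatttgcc

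The 14 nucleotide and cofactor carriers included Slc25a23, Slc25a4, Slc25a36 and Slc25a5, which were among the most read genes of the family and overlapped between groups in each comparison. Slc25a4, the ADP/ATP translocase of brain, heart and muscle, had 311 ± 8.94 CPM in Control rats, 309 ± 9.13 CPM in MS rats and 309 ± 13.6 CPM in MS+EA rats (SD, n = 3). The 95% interval of its log2 fold change in MS rats against Control rats was -0.14 to 0.13. The other translocase, Slc25a5, had 139 ± 6.34, 133 ± 8.31 and 127 ± 14.3 CPM, with overlap in each pair of groups. RefSeq names 9 pseudogenes of Slc25a5 in the rat, and how reads with several locations were counted is not given in the sources used here, so its level is less certain than that of Slc25a4, with 1. Slc25a36, a pyrimidine nucleotide carrier, had 133 ± 17.9, 138 ± 5.09 and 147 ± 13.3 CPM.

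The ATP-Mg/Pi carriers, which adjust the adenine nucleotide pool of the matrix under the control of calcium, differed from each other in the direction of their values. Slc25a23 had 321 ± 25.0, 308 ± 3.83 and 309 ± 52.8 CPM in Control, MS and MS+EA rats. Slc25a24 had 3.48, 4.75 and 3.73 CPM in Control rats, 3.09, 5.69 and 4.81 CPM in MS rats, and 6.10, 5.96 and 6.83 CPM in MS+EA rats. The MS+EA rats were above the other 6, which overlapped. In MS+EA rats against Control rats Slc25a24 had a log2 fold change of 0.66 ± 0.23 (SE), a fold of 1.58, with an edgeR adjusted p of 0.113. Without A1 it was 0.57, with an edgeR unadjusted p of 0.0537. In MS+EA rats against Control rats, 2 of 4 meninges markers were also higher at an unadjusted p under 0.05, beside 11.9% of all genes. Their part in the level of Slc25a24 was not tested. The genes on either side of Slc25a24, Henmt1 and Vav3, had log2 fold changes of 0.45 and 0.30 in the same comparison, with edgeR adjusted p values of 0.43 and 0.556, and Prpf38b, beyond Henmt1, had 0.50 with 0.0252. Slc25a25 had lower values in MS+EA rats, with 62.4, 67.3 and 63.9 CPM in Control rats, 63.2, 56.4 and 60.0 CPM in MS rats, and 53.4, 55.4 and 56.1 CPM in MS+EA rats. Its MS+EA rats were below all the others. For Slc25a25 the log2 fold change between MS+EA and Control rats was -0.23 ± 0.07 (SE), with an edgeR adjusted p of 0.0799. Slc25a42, the coenzyme A carrier, was below the Control rats in each MS+EA rat, at 25.2 to 28.2 CPM against 28.3 to 31.9 CPM, with an edgeR unadjusted p of 0.138. The other 7 genes of the class, among them Slc25a17 of peroxisomes, Slc25a32 for folate and FAD and Slc25a26 for S-adenosylmethionine, had an unadjusted p over 0.05 and overlapping groups in each comparison.

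The promoter of Slc25a24 is shown as that of the carrier whose MS+EA rats lay above all other rats. It lies on the plus strand of GRCr8 at chr2:199449175-199449474. Capitals mark the GC box GGGCGG, first on the other strand and then on this one.
Slc25a24: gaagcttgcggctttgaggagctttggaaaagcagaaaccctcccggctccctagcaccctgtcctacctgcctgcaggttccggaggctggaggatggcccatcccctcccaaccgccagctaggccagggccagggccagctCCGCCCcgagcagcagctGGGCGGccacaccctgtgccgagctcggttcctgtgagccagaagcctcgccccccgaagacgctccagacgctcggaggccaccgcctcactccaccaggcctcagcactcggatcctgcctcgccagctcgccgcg

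**Figure D3:**
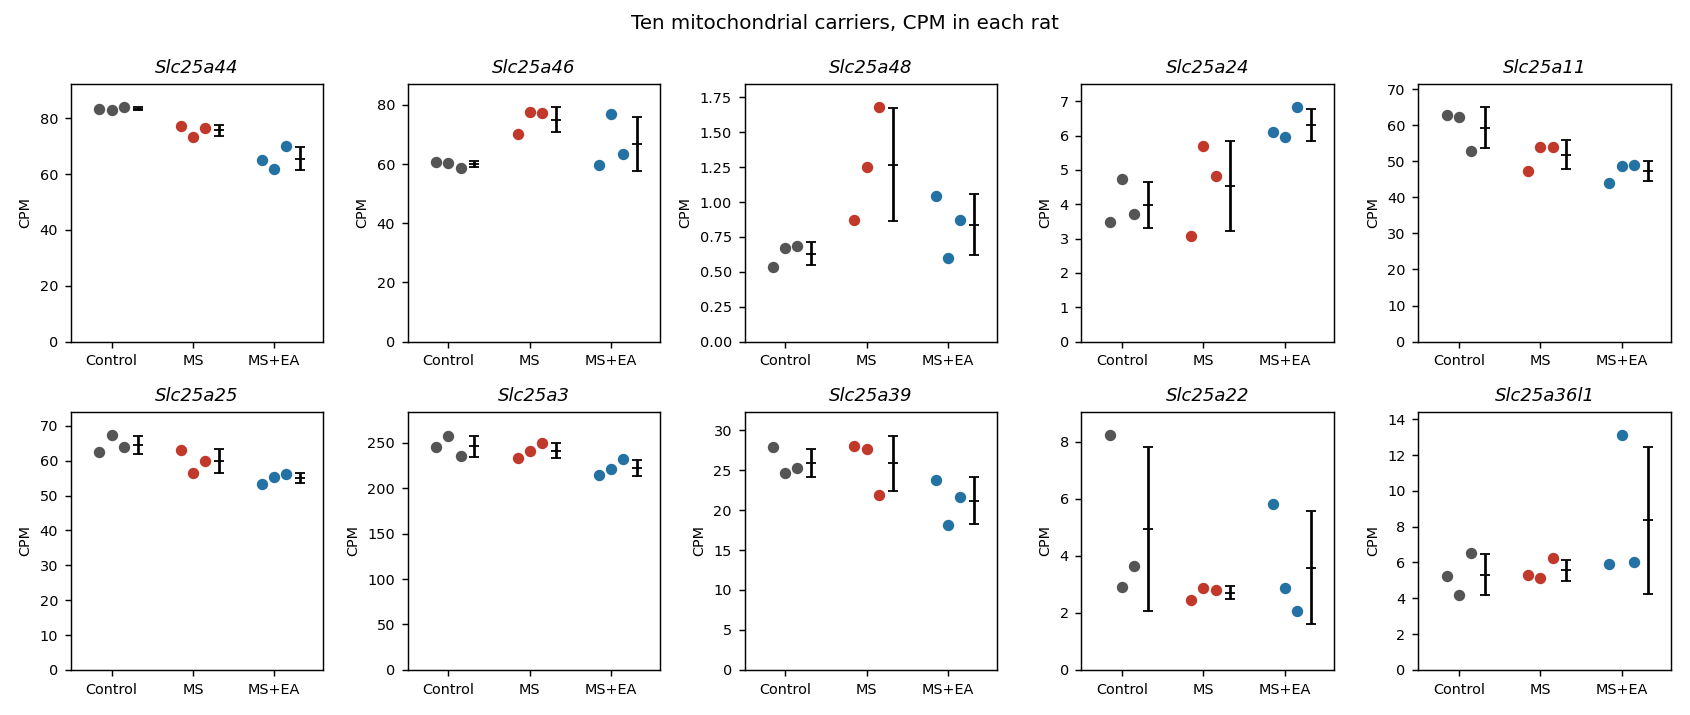
CPM (vertical axis, from 0) of 10 carriers in each rat, with points for rats and bars for the mean and SD of 3 rats. Slc25a44 steps down from Control to MS to MS+EA without overlap. Slc25a46 and Slc25a48 have their highest mean in MS rats, which overlap with MS+EA rats. Single rats set the means of Slc25a22 (A1) and Slc25a36l1 (C10).

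The class of iron, glutathione and acylcarnitine carriers holds 5 genes. Slc25a39, which brings glutathione into the matrix, had 27.9, 24.6 and 25.3 CPM in Control rats, 28, 27.7 and 21.9 CPM in MS rats, and 23.8, 18.1 and 21.7 CPM in MS+EA rats. The MS+EA rats were below the Control rats, and B6 overlapped with them. Slc25a39 had a log2 fold change of -0.29 ± 0.13 (SE) both in MS+EA rats against Control rats and in MS+EA rats against MS rats, with edgeR adjusted p values of 0.201 and 0.388, and without C10 the values were -0.19 and -0.18. RefSeq names 8 pseudogenes of Slc25a39. Its partner Slc25a40 had 5.32 ± 0.34, 5.98 ± 0.68 and 6.48 ± 0.81 CPM in Control, MS and MS+EA rats. The mitoferrins Slc25a28 and Slc25a37, which import iron, had 24.5 ± 0.81 and 6.85 ± 0.42 CPM in Control rats and 24.7 ± 1.91 and 6.57 ± 1.35 CPM in MS rats. Slc25a37 is abundant in young red blood cells, whose markers were higher in the MS rats, and its own log2 fold change there was -0.06 with overlapping groups. The part of these cells in the level of Slc25a37 was not tested. Slc25a20, the carnitine and acylcarnitine carrier that admits fatty acids, had 18.3 ± 1.91, 19.6 ± 1.24 and 19.1 ± 2.44 CPM.

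The 7 carriers of less certain substrate held the other genes with a difference in MS rats. Slc25a46 sits in the outer mitochondrial membrane, where it takes part in the fusion and fission of mitochondria. It had 60.8, 60.3 and 58.8 CPM in Control rats, 70.1, 77.7 and 77.1 CPM in MS rats, and 59.5, 76.9 and 63.4 CPM in MS+EA rats. The MS rats were above the Control rats, and the MS+EA rats spread over the range of both, with C10 as high as the MS rats. In MS rats against Control rats Slc25a46 had a log2 fold change of 0.32 ± 0.09 (SE), a fold of 1.25, with an edgeR adjusted p of 0.206, and between 0.295 and 0.367 under the 17 alternative settings. Its neighbours Syt4 and Sap130 had 0.24 and -0.06, with edgeR adjusted p values of 0.511 and 0.857. Slc25a48 had 10, 11 and 11 reads in Control rats, 15, 20 and 28 reads in MS rats, and 15, 9 and 11 reads in MS+EA rats. The MS rats were above the Control rats in CPM, at 0.874 to 1.68 against 0.535 to 0.683. They overlapped with the MS+EA rats, at 0.602 to 1.04 CPM. For Slc25a48 the log2 fold change in MS rats against Control rats was 1.01 ± 0.39 (SE), with an edgeR adjusted p of 0.377, and the unadjusted p passed 0.05 with DESeq2, without A1 and without B6. The red blood cell and meninges markers that were higher in MS rats were not tested for a part in the levels of these 2 genes.

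Slc25a36l1, a copy of Slc25a36, had 13.1 CPM in C10 and 4.20 to 6.52 CPM in the other 8 rats. Its log2 fold change in MS+EA rats against Control rats was 0.65 with an edgeR unadjusted p of 0.0417, and without C10 it was 0.16 with 0.471. Reads of Slc25a36 and Slc25a36l1 may be shared between the 2 genes. Slc25a52, the carrier with the fewest reads, had 5, 15 and 12 reads in Control rats, 8, 7 and 14 reads in MS rats, and 12, 10 and 8 reads in MS+EA rats, with overlap in each pair of groups. Slc25a34, Slc25a35, Slc25a43 and Slc25a45 had 0.291 to 6.95 CPM in the 9 rats, with overlapping groups and an unadjusted p over 0.05 in each comparison.

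**Figure D4:**
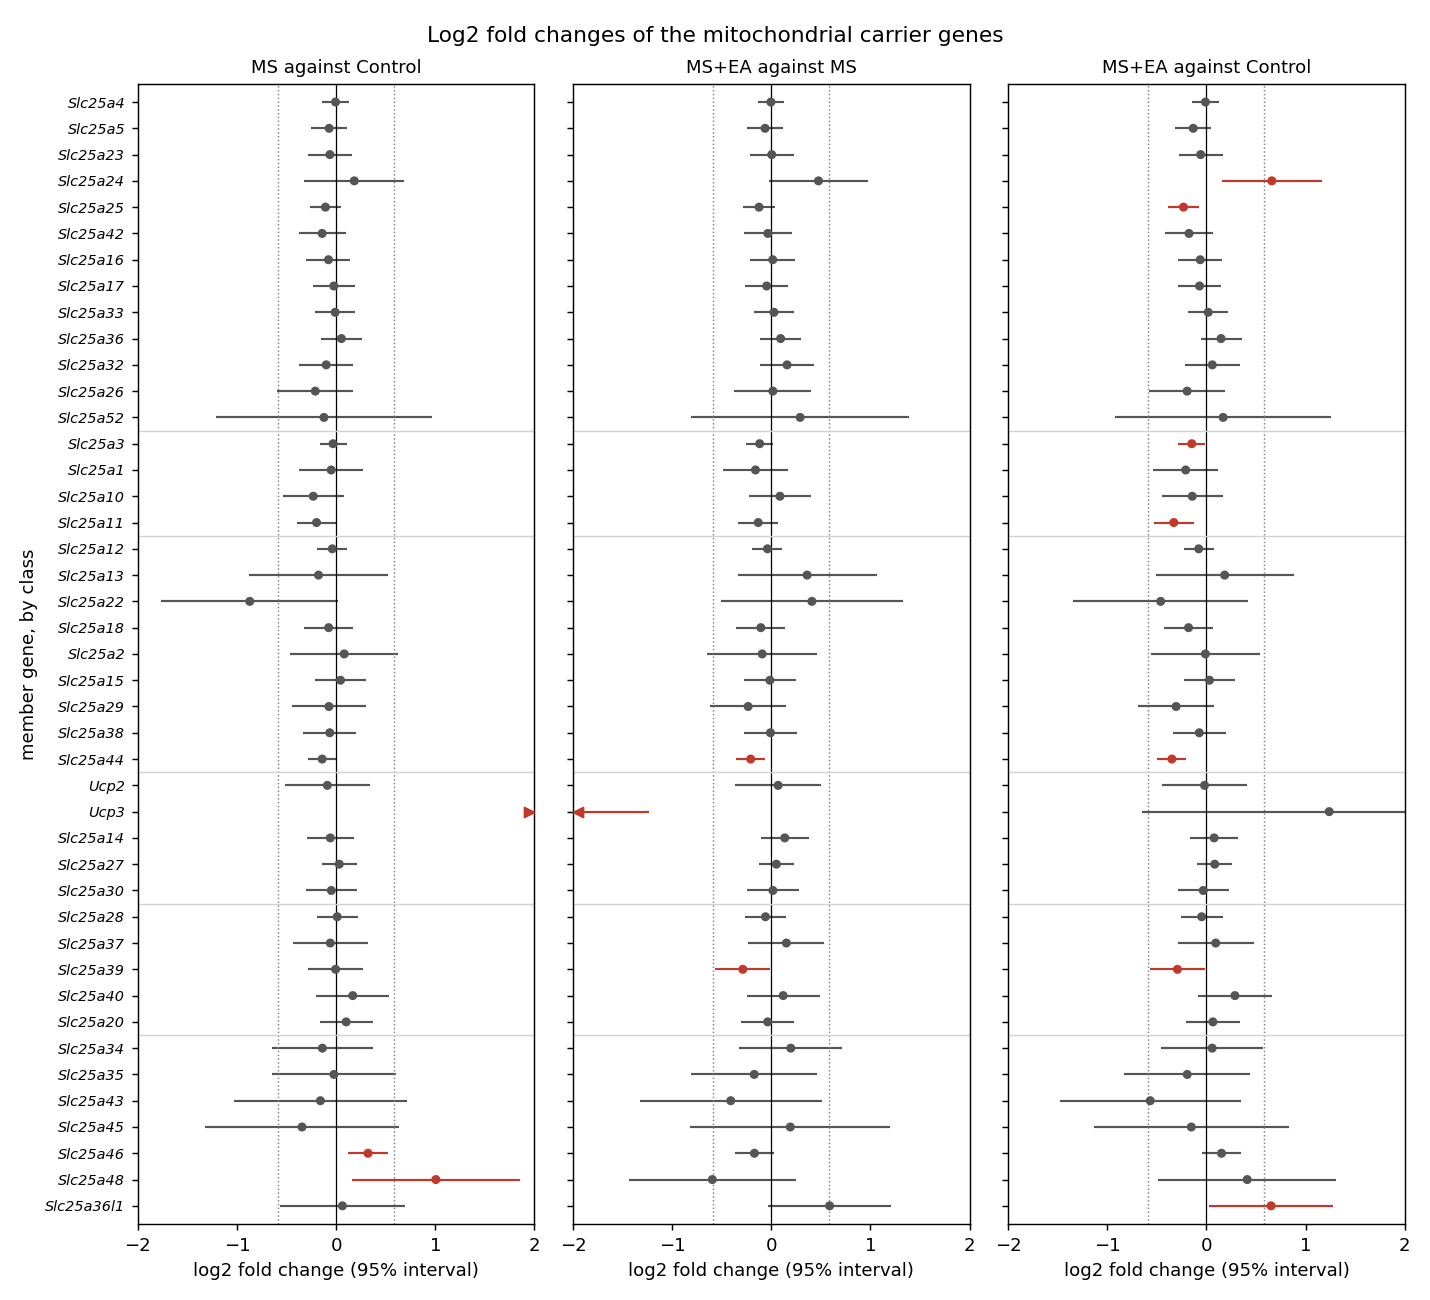
Log2 fold change of 43 of the 44 carriers (rows, by class) with its 95% interval in the 3 comparisons, in red at an unadjusted p under 0.05, with dotted lines at a 1.5-fold change. Most intervals lie within the dotted lines, and the Ucp3 changes of 3.82 in MS rats against Control rats and -2.58 in MS+EA rats against MS rats lie beyond the axis, which ends at 2.

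The comparison of MS rats with Control rats asks what early separation left in the adult cortex. The carriers at an unadjusted p under 0.05 were Ucp3, Slc25a46 and Slc25a48, all higher in MS rats. These are 6.82% of the 44 carriers, beside 7.06% of all genes that were higher at this p, and 0 carriers were lower, beside 3.55% of all genes. The carriers that were higher include Ucp3, which reached the minimum of reads only through the MS rats. The count of 3 became 5 without A6 and 5 without C3. The groups did not overlap for 5 carriers, 11.4% of the family beside 17.5% of all genes. These were Ucp3, Slc25a46 and Slc25a48, above the Control rats, and Slc25a44 and Slc25a22, below them. Of the 44 carriers, 31 had a log2 fold change below 0, which is 70.5% beside 50.3% of all genes. Their median was -0.05, beside -0.00135 for all genes, and the median SE of a single carrier was 0.125. The 95% interval stayed within a 1.5-fold change in either direction for 31 carriers, and reached past it for the other 13.

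The comparison of MS+EA rats with MS rats asks what EA changed in separated rats. Ucp3, Slc25a44 and Slc25a39 were lower at an unadjusted p under 0.05, which is 6.82% of the carriers beside 6.42% of all genes that were lower, and 0 carriers were higher beside 6.01% of all genes. The groups did not overlap for 5 carriers, 11.4% beside 17.9% of all genes. MS+EA rats lay above MS rats for Slc25a24 and below them for Ucp3, Slc25a44, Slc25a25 and Slc25a3. There were 23 carriers below 0, beside 49.9% of all genes, and 21 above, with a median of -0.00595 beside 0.000586 for all genes. With total counts in place of TMM factors, 17 were below 0 and 27 above, while the median of all genes moved to 0.0432. Of the 3 genes higher in MS than in Control rats at this p, Ucp3 was also at an unadjusted p under 0.05 in this comparison, in the other direction. Both comparisons use the same 3 MS rats, so a high value in them enters both. The reads of these rats also brought Ucp3 over the minimum.

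The comparison of MS+EA rats with Control rats asks how separated rats given EA differed from undisturbed rats. At an unadjusted p under 0.05, Slc25a24 and Slc25a36l1 were higher, which is 4.55% beside 11.9% of all genes, and Slc25a44, Slc25a11, Slc25a25, Slc25a3 and Slc25a39 were lower, which is 11.4% beside 10.6% of all genes. The count of 7 became 3 without A1 and 4 without C10. The groups did not overlap for 7 carriers, 15.9% beside 25.9% of all genes. MS+EA rats lay above Control rats for Slc25a24 and below them for Slc25a44, Slc25a11, Slc25a25, Slc25a3, Slc25a39 and Slc25a42. The median log2 fold change was -0.04, beside 0.00553 for all genes, and 26 carriers or 59.1% were below 0, beside 49.1% of all genes. With total counts 23 were below 0.

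**Figure D5:**
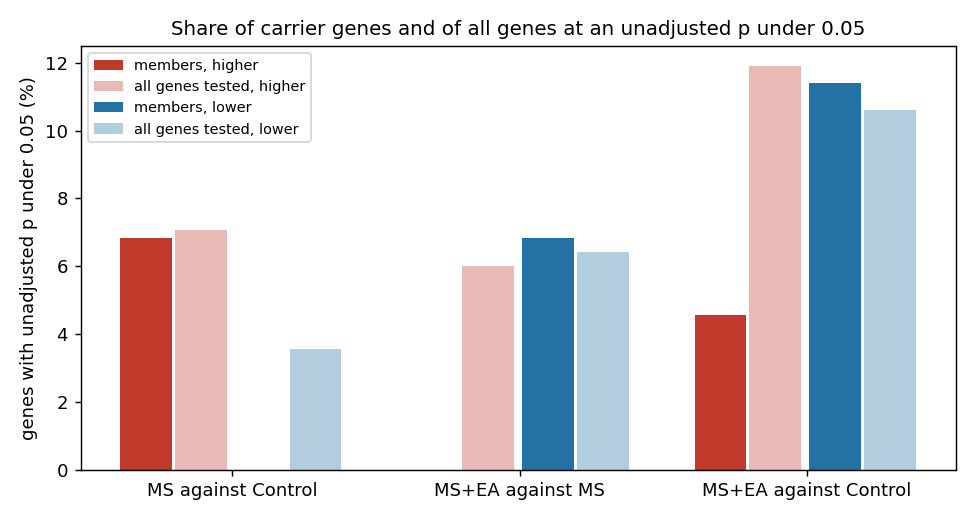
Share (%) of the 44 carriers (dark bars) and of all 16837 genes tested (pale bars) at an unadjusted p under 0.05, higher in red and lower in blue, in each comparison. The largest gap is in MS+EA rats against Control rats, where 4.55% of carriers and 11.9% of all genes were higher.

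The genes around the carriers were read from 4 lists. Of the 9 listed genes of carrier import, the TIM22 and TOM parts that insert carriers into the membranes, 7 were tested, and 1 had an unadjusted p under 0.05, in MS+EA rats against Control rats, where 22.5% of all genes did. Of the 6 shuttle enzymes, Got2, the mitochondrial aspartate aminotransferase, had 187 ± 8.52 CPM in Control rats, 182 ± 5.22 CPM in MS rats and 162 ± 0.92 CPM in MS+EA rats. Its log2 fold change in MS+EA rats against Control rats was -0.21 ± 0.06 (SE), with an edgeR adjusted p of 0.0606. All 6 shuttle enzymes were below 0 in that comparison, beside 49.1% of all genes, and Got2 alone of the 6 had an unadjusted p under 0.05, beside 22.5% of all genes.

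Among 17 tested transporters and channels outside the family, Micu3 and Mtch1 are described here. Both had an adjusted p under 0.05 in MS+EA rats against Control rats, as did 5.40% of all genes. Micu3, a neuronal subunit of the mitochondrial calcium uniporter, had 74.3, 86.2 and 83.7 CPM in Control rats, 118, 124 and 131 CPM in MS rats, and 111, 145 and 122 CPM in MS+EA rats. Micu3 was higher in MS+EA rats than in Control rats past both thresholds, which 1.37% of all genes passed. Its log2 fold change there was 0.63 ± 0.10 (SE), with an edgeR adjusted p of 0.0073. The MS rats were higher to a similar extent, with 0.61 against Control rats and an edgeR adjusted p of 0.0578. In MS+EA rats against MS rats Micu3 had 0.02 with an edgeR adjusted p of 0.965. Mtch1, a distant relative of the carriers in the outer membrane, had 262, 248 and 253 CPM in Control rats, 229, 235 and 235 CPM in MS rats, and 191, 209 and 197 CPM in MS+EA rats. The groups of Mtch1 stepped down from Control to MS to MS+EA without overlap, as those of Slc25a44 did. Its log2 fold change in MS+EA rats against Control rats was -0.36 ± 0.06 (SE), with an edgeR adjusted p of 0.0101, and its fold of 0.781 did not pass the fold threshold.

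Ucp3 is a target of the fatty acid receptors called PPARs, so 17 genes of fatty acid use and PPAR targets were read as well. In MS rats against Control rats 1 was higher and 1 lower at an unadjusted p under 0.05, beside 7.06% and 3.55% of all genes, and none reached an adjusted p under 0.05. The higher one was Txnip, with a log2 fold change of 0.67 ± 0.29 (SE), and the lower one was Cpt1c, the carnitine palmitoyltransferase of neurons, with -0.20 ± 0.08. The PPAR targets Pdk4, Angptl4 and Cpt1b had log2 fold changes of -0.46, 0.01 and -0.12, with overlapping groups.

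Promoters were available from RefSeq for 35 of the 44 carriers. Their median GC content was 60.7%, and that of all 27457 promoters of the same length was 52.3%. The GC box GGGCGG was found on either strand in 25 of the 35, or 71.4%, and in 34.9% of all promoters, and CCAAT in 54.3% and 37.7%. The ETS element CCGGAAG was found in 17.1% and 9.22%, with Slc25a3, Slc25a4, Slc25a14, Slc25a17, Slc25a20 and Slc25a38 as the carriers, and TATAAA in 5.71% and 14.3%. CGCATGCG, AAGATGGC, AAGGTCA and CACGTG were found in 2.86%, 2.86%, 2.86% and 5.71% of the carriers and in 1.81%, 3.44%, 4.37% and 6.65% of all promoters. These matches describe letters, more of which are G and C in the carriers, and the binding of a factor was not measured.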

How the data were processed

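RNA depleted of rRNA was sequenced from 9 rats. Per the labels and the study's methods, the authors mapped the reads to Rnor_6.0 with HISAT2 2.0.4 and deposited whole-number counts per gene without normalization. The counting program, its strand setting and the treatment of reads with several locations are not given in the sources used here. Groups were taken from the labels.

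The counts of all 9 rats were fitted with edgeR 4.0.16 in R 4.3.3, with TMM factors, filterByExpr (minimum count 10) and a mean per group. The quasi-likelihood F test was adjusted by Benjamini-Hochberg over 16837 genes. CPM used the TMM-scaled library size. The SE was taken as the absolute log2 fold change over the root of its F value. The biological coefficient of variation was 12.7%, and totals per rat were between 12479905 and 19007907 counts. The interval of the Ucp3 ratios is an exact binomial interval of summed reads. The self-test on simulated counts was used to check the script. Python 3.11.15, pandas 2.3.3, scipy 1.17.1 and matplotlib 3.10.9 were used for promoters and plots.

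The alternatives were DESeq2 1.42.0, the likelihood ratio test, bias-adjusted deviances, other scaling, other filters, no fold threshold, a fit of the 6 rats compared and the omission of each rat. Genes were named if they had an unadjusted p under 0.05 in a comparison, if their groups did not overlap with a log2 fold change of at least 0.25, if they were among the 8 with most or the 5 with fewest reads or next to the minimum of reads, or if they were uncoupling proteins or ADP/ATP carriers. Further genes of the classes were named as examples of their roles, and the neighbours, Micu3, Mtch1, Got2, Txnip and Cpt1c after their values were seen. One carrier is counted but not shown by name, and 1 gene of the lists is not reported here. The members and lists were chosen with earlier results of these data known. Promoters and gene order came from RefSeq in GRCr8, and the symbols of all 44 carriers matched. Mcart1 and Mcart1l, older names of Slc25a51 and Slc25a53, fall outside the rule, and Slc25a6 is not typed as mRNA.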

Additional observations from a re-analysis of the deposited data

How the results depend on the processing

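No carrier was called in the comparisons with either the RLE or the total count scaling, DESeq2, bias-adjusted deviances, the filter of 10 counts in every rat or the fit of the 6 rats compared. For Ucp3 the counts of 0 with DESeq2 and with the 10-count filter say nothing, since DESeq2 gave it no adjusted p and the filter removed it. The count called in MS rats against Control rats and in MS+EA rats against MS rats was 1 with the filter of at least 1 count and 1 with the likelihood ratio test, in each case Ucp3. In MS+EA rats against Control rats it was 1 with no fold change threshold, Slc25a44. Carriers at an unadjusted p under 0.05 in MS rats against Control rats numbered 5 with total counts, 5 with at least 1 count and 5 in the fit of the 6 rats compared. In MS+EA rats against MS rats they numbered 5 with at least 1 count and 1 with at least 10 counts in every rat, which left 40 carriers tested. When each rat was left out in turn, 0 carriers were called in any comparison, and those at an unadjusted p under 0.05 numbered 2 to 5, 2 to 4 and 3 to 10 in MS against Control, MS+EA against MS and MS+EA against Control. The median log2 fold change then ran from -0.0668 to -0.00627, from -0.0527 to 0.044 and from -0.0796 to -0.00957. The log2 fold changes of the 13 differences at an unadjusted p under 0.05 kept their direction under all the settings that gave a value. Each difference was then counted once per setting. With a rat left out, the unadjusted p passed 0.05 in 23 cases and stayed under it in 94. In the other settings it passed 0.05 in 11 cases and stayed under it in 90, and the cause was not tested. No paired analysis was possible because no 2 groups share more than 1 replicate number and the rats are separate animals. Genes with few reads, such as Ucp3, Slc25a48 and Slc25a52, have wide intervals, and 3 rats per group limit all comparisons.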
